A study of Mus musculus with 12 samples.

Results

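The response of lung CD4+ T cells to Escherichia coli in juvenile mice was read from 6 RNA libraries, 3 from mice that aspirated E. coli on day 15 of life and 3 from mice that aspirated phosphate-buffered saline (PBS) on the same day. They are 6 of the 12 libraries of the series and include every library labelled as juvenile. All mice were C57BL/6NJ, of both sexes, with no transgene or deletion named in the labels. The dose was 2800000 colony-forming units, and the lungs were taken 48 h later. CD4+ T cells were isolated by bead enrichment followed by a flow sort. Each juvenile library came from a pool of 2 mice, so n = 3 counts pools. The other 6 libraries, from mice treated in the same way on day 5 and pooled 3 to a library, were used for the spread between replicates and for the test of whether the responses of the 2 ages differed. Of 19434 genes counted, 11062 had enough counts for a test, and these are the transcripts described here.

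CD4+ T cells are the helper lymphocytes that read antigen on MHC class II and direct other immune cells through cytokines. Interferon-gamma, made by Th1 helper cells and others, signals through JAK1 and JAK2 to STAT proteins, which bind GAS elements in promoters. Type I interferons act through a complex of STAT proteins and IRF9, which binds ISRE elements, and both routes raise sets of antimicrobial GTPases, antiviral proteins and chemokines. On activation, CD4+ T cells leave quiescence, lose lymph node homing receptors, divide, and take up Th1, Th17, regulatory or other programs.

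In each sentence below, values in a row are for libraries 1, 2 and 3 of a group in CPM, read counts scaled to TMM-adjusted library size, and a log2 fold change compares E. coli with PBS in juveniles, with its standard error. A transcript is said to have risen or fallen where its adjusted p was under 0.05 in edgeR's quasi-likelihood test. Of the transcripts tested, 15.4% rose (1705), 9.42% fell (1042) and 4089 had an unadjusted p under 0.05. The 3 E. coli libraries all stood above the 3 PBS libraries for 20.6% of transcripts, and all below them for 16.3%. The median log2 fold change of all transcripts was -0.01. Juvenile libraries held 6125044 to 8129983 counts, and 3 counts, the floor that a count of 0 allows, came to 0.377 to 0.494 CPM. On the first principal component of the 6 juvenile libraries (61.7% of variance) the groups lay apart. On the second (19.6%) PBS library 2 stood apart at 39.6, against -24.2 to 5.45 for the others. Upper-quartile scaling, which moved the median log2 fold change by -0.057, gave 1468 rises and 1415 falls. Without E. coli library 2 there were 1143 rises and 513 falls, and without E. coli library 1 there were 1171 and 628.

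**Figure D1:**
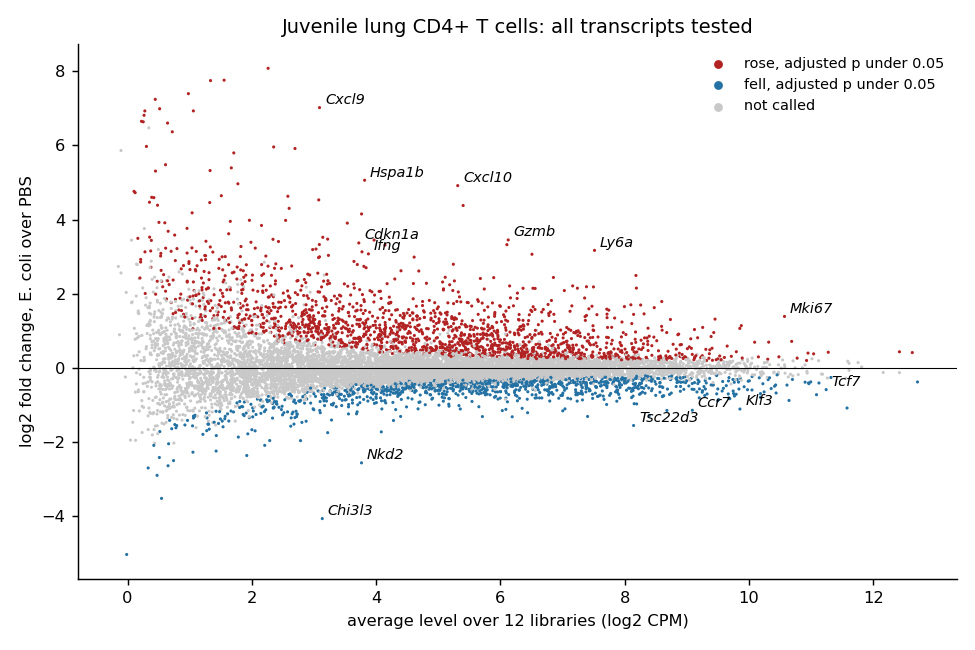
Log2 fold change of each of the 11062 transcripts tested (vertical axis) against its average level over 12 libraries (horizontal axis, log2 CPM). Points in red rose (1705), points in blue fell (1042) and grey points were not called. Rises reach further from 0 than falls: 246 rises and 15 falls were at least 4-fold.

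Rises spanned a wider range of sizes than falls. Of the rises, 589 were 2- to 4-fold, 155 were 4- to 8-fold and 91 were at least 8-fold. Falls were mostly small, with 436 under 1.41-fold, 473 between 1.41- and 2-fold and 133 at least 2-fold. In 1610 of the rises and 951 of the falls the groups did not overlap. The median size was 0.97 for rises and 0.55 for falls on the log2 scale.

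Promoters of 8 interferon and cytokine response genes and 2 mitosis genes that rose are shown first, chosen because each holds at least 1 of the elements marked and not by the size of the rise, so that the letters can be set beside groups of genes that moved together. RefSeq promoters (GRCm38.p6) were matched for 8324 of the transcripts tested, and the 250 bases before each start were searched on both strands. Searched were an ISRE core (GAAA, any 2 bases, GAAA), a GAS element (TTCNNNGAA, the same on both strands), a CCAAT box (CCAAT), the CHR element of mitotic genes (TTTGAA), an E2F site (TTTGGCGC), an NF-kB site (GGGA, any base, TTTCC) and a heat shock element (GAA, any 2 bases, TTC, any 2 bases, GAA). ISRE and GAS letters can overlap, and in the windows printed none do. Capitals mark ISRE cores and GAS elements in the first 8 promoters and CHR elements and CCAAT boxes in Mki67 and Top2a. Irf1 has another start in the table, whose window held neither element.
Gbp2, chr3:142620413-142620662, plus strand: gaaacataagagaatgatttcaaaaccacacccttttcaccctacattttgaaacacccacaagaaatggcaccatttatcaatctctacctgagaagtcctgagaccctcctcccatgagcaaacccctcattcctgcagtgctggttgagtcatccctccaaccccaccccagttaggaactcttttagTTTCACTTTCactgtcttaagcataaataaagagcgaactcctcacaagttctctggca
Gbp5, chr3:142496684-142496933, plus strand: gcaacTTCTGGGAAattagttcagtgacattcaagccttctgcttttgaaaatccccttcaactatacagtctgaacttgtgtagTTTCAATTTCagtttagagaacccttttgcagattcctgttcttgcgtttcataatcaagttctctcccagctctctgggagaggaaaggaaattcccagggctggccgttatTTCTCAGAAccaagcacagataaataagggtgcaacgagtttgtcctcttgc
Igtp, chr11:58199306-58199555, plus strand: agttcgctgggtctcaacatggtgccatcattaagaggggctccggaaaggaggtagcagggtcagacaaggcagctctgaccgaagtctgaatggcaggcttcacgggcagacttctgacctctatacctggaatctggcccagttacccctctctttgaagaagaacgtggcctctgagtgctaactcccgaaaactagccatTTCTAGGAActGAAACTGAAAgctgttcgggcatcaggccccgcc
Ifit3, chr19:34583279-34583528, plus strand: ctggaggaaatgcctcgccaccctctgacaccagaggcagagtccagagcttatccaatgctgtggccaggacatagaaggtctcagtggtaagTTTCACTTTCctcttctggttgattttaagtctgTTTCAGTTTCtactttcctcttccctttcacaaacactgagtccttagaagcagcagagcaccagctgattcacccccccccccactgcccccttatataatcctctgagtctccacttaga
Cxcl10, chr5:92348890-92349139, minus strand: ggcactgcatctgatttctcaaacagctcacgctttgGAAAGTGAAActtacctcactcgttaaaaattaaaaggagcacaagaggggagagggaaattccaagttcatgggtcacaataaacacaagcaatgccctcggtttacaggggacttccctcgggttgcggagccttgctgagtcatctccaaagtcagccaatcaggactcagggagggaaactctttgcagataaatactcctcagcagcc
Irf1, chr11:53769764-53770013, plus strand: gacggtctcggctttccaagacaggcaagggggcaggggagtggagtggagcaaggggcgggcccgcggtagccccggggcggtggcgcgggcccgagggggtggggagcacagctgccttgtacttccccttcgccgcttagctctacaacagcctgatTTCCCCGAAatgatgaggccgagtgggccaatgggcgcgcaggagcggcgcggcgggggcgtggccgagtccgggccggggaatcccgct
Socs3, chr11:117969367-117969616, minus strand: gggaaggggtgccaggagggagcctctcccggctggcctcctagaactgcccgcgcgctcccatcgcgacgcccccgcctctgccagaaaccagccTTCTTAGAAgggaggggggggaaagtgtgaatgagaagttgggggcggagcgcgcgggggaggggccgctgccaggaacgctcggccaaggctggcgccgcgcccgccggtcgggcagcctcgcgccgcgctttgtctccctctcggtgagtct
Icam1, chr9:21015690-21015939, plus strand: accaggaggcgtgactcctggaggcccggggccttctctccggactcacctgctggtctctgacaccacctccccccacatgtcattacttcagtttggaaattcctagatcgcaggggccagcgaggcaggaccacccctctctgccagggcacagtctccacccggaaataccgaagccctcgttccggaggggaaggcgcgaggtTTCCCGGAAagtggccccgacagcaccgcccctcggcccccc
Mki67, chr7:135716380-135716629, minus strand: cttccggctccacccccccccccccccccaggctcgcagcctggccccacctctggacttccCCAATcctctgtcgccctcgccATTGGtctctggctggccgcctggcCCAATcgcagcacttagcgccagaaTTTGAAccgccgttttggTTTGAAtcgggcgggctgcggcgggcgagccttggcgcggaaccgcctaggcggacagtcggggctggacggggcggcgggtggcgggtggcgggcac
Top2a, chr11:99024190-99024439, minus strand: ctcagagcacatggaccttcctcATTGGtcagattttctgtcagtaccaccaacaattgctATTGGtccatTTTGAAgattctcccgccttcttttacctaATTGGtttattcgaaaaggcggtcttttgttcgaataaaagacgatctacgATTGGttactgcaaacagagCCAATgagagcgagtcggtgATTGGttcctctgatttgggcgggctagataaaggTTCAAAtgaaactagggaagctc

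An ISRE core stood in 2.77% of the 10679 promoters of transcripts tested. It was in 6.98% of promoters of transcripts that rose at least 8-fold, 11.9% for rises of 4- to 8-fold, 5.90% for 2- to 4-fold and 4.24% for smaller rises. It was in 2.28% of promoters of transcripts not called and in 2.14% and 2.42% of those of smaller and larger falls. Ribosomal protein genes, most of which fell, held it in 6 of 67 promoters (8.96%). The core was in 9 of 10 promoters of guanylate-binding proteins and immunity-related GTPases and in 10 of 30 promoters of antiviral genes, and GAS elements were in 6 and 5 of them, against 5.92% of promoters tested. These GTPases lie in gene clusters with near-identical copies, so their promoters are not independent. Of 35 promoters of mitosis genes, 26 held a CCAAT box and 14 a CHR element, against 35.4% and 10.8% of promoters tested. An E2F site stood in 3 of 32 promoters of S phase genes (0.758% of promoters tested), and an NF-kB site in 3 of 21 promoters of NF-kB genes (0.421%). A match is a match of letters and no measure of binding.

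Genes of interferon signalling rose for the most part. Of 17 genes for interferon receptors, JAK and STAT proteins and IRF factors, 10 rose and 1 fell, with a median log2 fold change of 0.50. Irf1 (chromosome 11, 53770014 to 53778374, GRCm38), an interferon-induced transcription factor that carries the GAS element shown above, stood at 72.2, 46.3 and 103 CPM after PBS and 195, 198 and 248 CPM after E. coli (log2 fold change 1.53 ± 0.21, adjusted p = 8.55e-05). No E. coli library reached down to the PBS range, and library 3 was the highest of the E. coli group. Stat2, a transcription factor of the type I route, rose by 1.54 ± 0.14, and Irf8, a factor that interferon-gamma induces, by 1.63 ± 0.19. Jak2 rose by 0.72 ± 0.09 and the receptor chain Ifngr1 by 0.50 ± 0.11, from 287, 225 and 261 to 364, 366 and 363 CPM. The 1 faller was the kinase Jak1 (-0.31 ± 0.07, adjusted p = 0.00398).

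Antiviral interferon-stimulated genes rose almost as a block, with 32 of 35 called, 0 falls and a median of 1.41. Ifit3, an RNA-binding antiviral protein whose promoter holds a pair of ISRE cores, stood at 16.7, 18.6 and 14.7 CPM after PBS and 139, 83.7 and 49.8 CPM after E. coli (2.45 ± 0.29, adjusted p = 3.22e-05). Its E. coli values differed by library, with library 1 well above library 3 and both above every PBS value. Mx1, a dynamin-like antiviral GTPase, rose from 2.16, 0.989 and 4.30 to 42.1, 26.0 and 15.5 CPM (3.48 ± 0.41) and Isg15, a ubiquitin-like modifier, from 1.87, 0.165 and 2.07 to 19.1, 8.56 and 6.48 CPM (3.02 ± 0.52). The values of Mx1 and Isg15 depended on single libraries: Mx1 was at 4.11 without PBS library 3, and Isg15 at 2.40 without E. coli library 1. Ifi204, a cytosolic DNA sensor, rose by 3.45 ± 0.34, the nucleic acid sensor Zbp1 by 1.56 ± 0.14, Rtp4 by 1.77 ± 0.17 and the ADP-ribosyltransferase Parp14 by 1.12 ± 0.10. Members of the list ranged from 0.35 to 3.48.

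All 16 guanylate-binding proteins (GBPs) and immunity-related GTPases tested rose, 14 of them at least 2-fold, with a median of 1.65. These proteins coat pathogens and the vacuoles that hold them. Gbp5 (chromosome 3, 142493978 to 142522344) stood at 14.6, 15.8 and 14.0 CPM in PBS libraries and 126, 107 and 75.5 CPM in E. coli libraries, a 6.96-fold rise (2.80 ± 0.20, adjusted p = 5.44e-07). Iigp1, an effector GTPase of this family, stood at 20.6, 25.2 and 19.0 CPM and 314, 214 and 122 CPM (3.33 ± 0.27). Gbp2 stood at 76.2, 81.2 and 65.5 CPM and 444, 326 and 222 CPM (2.15 ± 0.20). In each of the 3, E. coli library 1 was highest and library 3 lowest, and the PBS libraries lay close together. Igtp rose by 1.66 ± 0.12, and Irgm1 and Irgm2, which guard the cell's own membranes, by 1.65 ± 0.21 and 1.59 ± 0.12. Reads of near-identical family members may be split between them.

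Genes of antigen presentation rose by less. Of 13 tested genes of MHC class I and the immunoproteasome, 8 rose (median 0.35, and 5 without E. coli library 1 or PBS library 1), among them the peptide transporter Tap1 (123, 125 and 137 to 269.7, 226 and 210.4 CPM, 0.88 ± 0.10), the chaperones Tapbpl (0.91 ± 0.12) and Tapbp (0.52 ± 0.12), and the immunoproteasome subunit Psmb9 (0.44 ± 0.09). B2m, the light chain of MHC class I, stood at 5187, 7480.1 and 4753 CPM and 9048, 7668 and 6901 CPM, with PBS library 2 inside the E. coli range (0.44 ± 0.13, adjusted p = 0.0254). Its call was lost without E. coli library 1 (adjusted p = 0.164), E. coli library 2 (0.0559), PBS library 1 (0.105) or PBS library 3 (0.0917). Of 31 subunits of the constitutive proteasome, which does general protein turnover, 1 rose and 0 fell (median 0.01), a share below that of all transcripts, and 6 rose without PBS library 2. The riser, Psma4, was at 0.44 ± 0.13 and lost its call without any 1 of E. coli libraries 1 and 2 and PBS libraries 1 and 3 (adjusted p 0.174, 0.062, 0.0553 and 0.0875).

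Of 12 tested Schlafen and Ly6 genes, which include surface proteins raised by interferon, 8 rose and 1 fell. Ly6a, the stem cell antigen Sca-1, stood at 50.6, 60.6 and 61.7 CPM after PBS and 709.9, 530.1 and 318 CPM after E. coli (3.17 ± 0.22, adjusted p = 5.34e-07). Ly6c2 rose by 1.69 ± 0.19, Ly6e by 0.85 ± 0.10 and the growth regulator Slfn5 by 0.82 ± 0.10. The faller was Slfn1 (-0.45 ± 0.12, with its call lost without E. coli library 2, adjusted p = 0.0545), a Schlafen gene known from quiescent T cells.

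**Figure D2:**
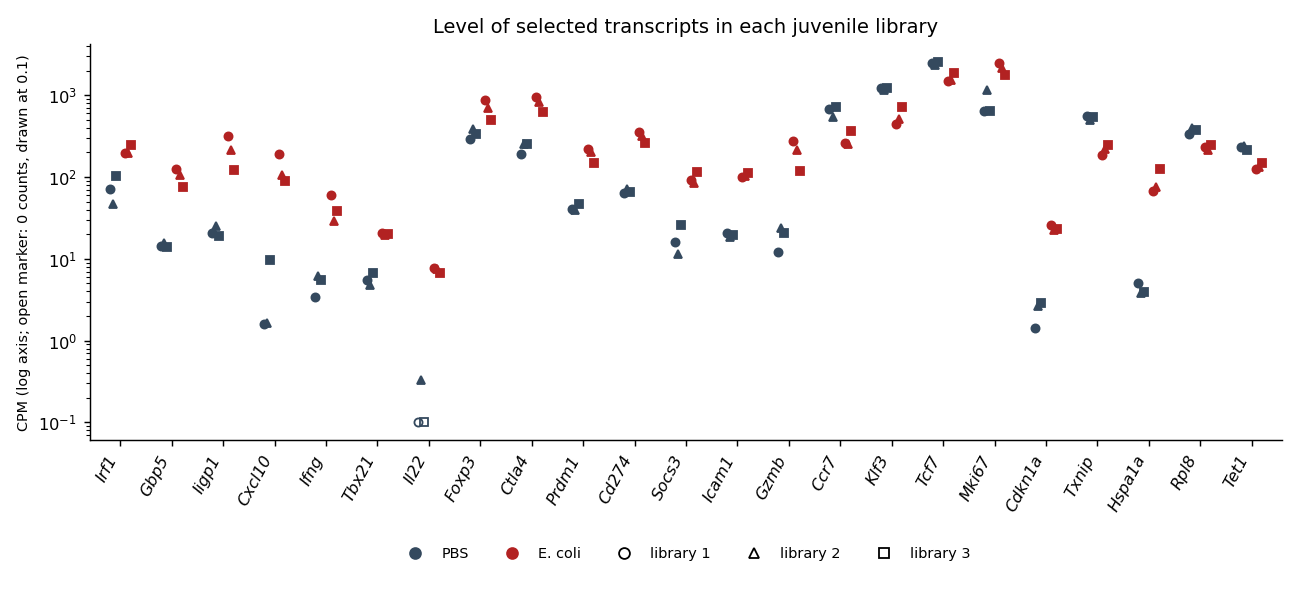
Level of 23 transcripts in each juvenile library (CPM, log axis), PBS libraries in dark blue and E. coli libraries in red, with a marker shape for each library number. For every transcript drawn the 3 libraries of a group lie on 1 side of the 3 of the other, and an open marker is a library with 0 counts.

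The 10 largest rises, among named genes with an average of at least 3 log2 CPM and groups that did not overlap, were mixed in kind. Cxcl9 (chromosome 5, 92321347 to 92328079), a chemokine that interferon-gamma induces and that draws CXCR3-bearing T cells, stood at 0.144, 0 and 0.478 CPM after PBS and 34.5, 37.2 and 16.1 CPM after E. coli. That is 670 counts in the E. coli group against 4 in the PBS group (7.02 ± 0.55, adjusted p = 9.7e-07), and the value was 8.29 without PBS library 3. Its neighbour on chromosome 5, Cxcl10, stood at 1.58, 1.65 and 9.72 CPM and 193, 107 and 88.7 CPM (4.92 ± 0.43, or 6.32 without PBS library 3). The rest of the 10 were Hspa1b and Hspa1a, described below with the chaperones, Gzmb and Mx1, the vascular receptor Kdr, and 3 genes of inflammatory cells. These 3 were Irg1, which makes itaconate in macrophages (4.53 ± 0.42), Il1rn, the IL-1 receptor antagonist (4.15 ± 0.51), and Ptgs2, the inducible cyclooxygenase (3.91 ± 0.46). Without PBS library 3, Irg1 was at 5.47 and Ptgs2 at 4.68.

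Markers of other cells moved with these genes. Summed over 16 monocyte and macrophage markers, libraries 1 to 3 stood at 444, 226 and 325 CPM after PBS and 466, 866 and 619.9 CPM after E. coli, and of 14 tested, 9 rose and 2 fell. The defining markers were present in every library: Csf1r at 46.5, 15.2 and 36.7 and 46.3, 101 and 67.1 CPM and Lyz2 at 99.0, 41.7 and 68.4 and 95.6, 222 and 187 CPM, with PBS and E. coli values overlapping for both. The 2 fallers were Ear2 (-2.63 ± 0.49, or -3.23 without E. coli library 3) and Chi3l3, both known from lung macrophages. Chi3l3 had the largest fall among genes chosen in the same way, from 35.9, 35.8 and 28.2 to 3.65, 0.829 and 1.40 CPM (-4.06 ± 0.41, or -4.89 without E. coli library 1). Dendritic cell and MHC class II markers, 14 in all, summed to 392, 287 and 408 CPM after PBS and 714, 805 and 636 CPM after E. coli, with 8 of 12 tested called as rises. In it Siglech, of plasmacytoid dendritic cells, went from 45.2, 59.5 and 59.5 to 188, 200.4 and 136 CPM. Neutrophil markers, 12 in all, summed to 0.330 to 4.03 CPM and 9.66 to 22.5 CPM. Of 4 tested 3 rose and 0 fell, the risers being S100a8, S100a9 and Cxcr2. S100a9 had 0 counts in every juvenile PBS library and stood at 8.05, 4.14 and 2.03 CPM after E. coli. Cxcr2 also had 0 counts in every juvenile PBS library and stood at 1.51, 2.90 and 0.890 CPM after E. coli. Mpo, Elane and Camp, with too few counts for a test, were at 0 in all juvenile libraries. What these cells contribute to the values of Cxcl9, Cxcl10, Irg1, Il1rn and Ptgs2 was not tested. In RNA from pooled cells, more cells of a type and more RNA per cell cannot be told apart, here and for every list above and below.

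Kdr, the VEGF receptor of endothelium, stood at 1.73, 1.98 and 1.59 CPM after PBS and 29.8, 21.3 and 10.4 CPM after E. coli (3.53 ± 0.55). Of 10 tested endothelial markers 6 rose and 1 fell. The defining marker Cdh5 went from 6.34, 3.13 and 4.78 to 20.2, 22.5 and 14.2 CPM and Pecam1, which T cells also express, from 223, 237 and 219.8 to 181, 189 and 193 CPM. The sum over the list was 264 to 271 CPM after PBS and 265 to 285 CPM after E. coli, most of it Pecam1. Lung epithelial markers summed to 59.3 to 65.7 CPM and 132 to 258 CPM, and of 10 tested 3 rose, Scgb1a1, Cdh1 and Hopx. Scgb1a1 went from 23.3, 8.73 and 24.2 to 72.6, 131 and 45.4 CPM (2.13 ± 0.49). Cdh1 went from 8.65, 10.7 and 6.38 to 46.9, 47.6 and 30.1 CPM (2.28 ± 0.25). The defining marker Sftpc stood at 1.28 to 3.18 CPM in all juvenile libraries and was not called. The part of these cells in the Kdr values was not tested. Of 10 tested B cell markers 2 rose and 0 fell, with sums of 57.4 to 78.0 CPM and 80.1 to 108 CPM.

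Helper cytokines and their programs followed. Of 16 tested Th1 genes 13 rose and 0 fell (median 1.38). Ifng (chromosome 10, 118441046 to 118445892), the Th1 cytokine, stood at 3.46, 6.10 and 5.58 CPM and 60.0, 29.0 and 38.1 CPM, with library 1 the highest (3.08 ± 0.28, adjusted p = 3.04e-06). Tbx21, which encodes the lineage factor T-bet, stood at 5.48, 4.78 and 6.70 CPM and 21.0, 19.5 and 20.2 CPM (1.84 ± 0.22). The E. coli libraries differed by little for Tbx21 and by about a factor of 2 for Ifng. Receptors for IL-12 and IL-18, the cytokines that drive Ifng, rose as well, with Il12rb1 at 2.05 ± 0.19, Il18rap at 1.34 ± 0.12 and Il18r1 at 0.81 ± 0.10. Cxcr3, the receptor for the products of Cxcl9 and Cxcl10, rose by 1.51 ± 0.18 and Cxcr6 by 1.11 ± 0.14.

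All 13 Th17 genes tested rose, with a median of 1.51, and 12 rose without E. coli library 2, PBS library 1 or PBS library 3. Il17a, the signature cytokine, had 0 counts in all juvenile PBS libraries and stood at 2.14, 2.90 and 2.92 CPM after E. coli. Set against 3 counts in each PBS library, that is at least 5.67-fold higher (adjusted p = 0.00038). Il22, which acts on epithelium, had 2 counts in the PBS group and 169 in the E. coli group, a ratio of 70.6 (95% exact binomial interval 19.3 to 588, counting error only). Il22 stood at 0, 0.330 and 0 CPM after PBS, both counts in library 2, and 7.67, 7.60 and 6.74 CPM after E. coli, close together. Il21 stood at 0, 0.330 and 0.478 CPM and 6.29, 2.49 and 1.91 CPM, with library 1 highest (3.69 ± 0.76, or 2.96 without that library, 3.08 without PBS library 1 and 4.39 without PBS library 3). Among the regulators, Maf rose by 1.51 ± 0.12, the aryl hydrocarbon receptor Ahr by 1.44 ± 0.15, Rora by 1.07 ± 0.13, Stat3 by 0.86 ± 0.10 and Batf by 1.16 ± 0.15. Rag1, the recombinase of immature T cells, stood at 13.7, 169.9 and 29.5 CPM after PBS and 104, 145 and 102 CPM after E. coli. PBS library 2 was the highest of the 6. Rag1 was not called (0.73 ± 0.88, adjusted p = 0.592) but passed with limma voom (2.75, adjusted p = 0.0148). Rag2 stood at 0.720, 24.2 and 1.75 CPM and 9.05, 8.15 and 5.08 CPM. Dntt stood at 6.63, 44.8 and 3.19 CPM and 15.97, 20.3 and 18.4 CPM, neither called. For all 3, PBS libraries 1 and 3 lay below every E. coli library. Over 11 markers of immature T cells, all tested, 1 rose and 1 fell (Themis). Their sums were 1137 to 1673 CPM after PBS and 1209 to 1327 CPM after E. coli. The sums include Rmnd5a (252 to 366 CPM) and Tcf12 (221 to 243 CPM), each above Rag1, Rag2 and Dntt in every library. The part of these markers in the Th17 values was not tested.

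Th2 genes were divided, with 5 of 12 tested called as rises (3 without E. coli library 2) and 0 as falls (median 0.78). Areg, an epidermal growth factor relative that T cells make in tissue repair, stood at 1.58, 8.57 and 5.10 CPM and 53.8, 61.7 and 33.9 CPM (3.31 ± 0.39, or 3.92 without PBS library 2). The receptors Ccr8 and Ccr4 rose by 1.82 ± 0.28 and 0.79 ± 0.13. The Th2 cytokine Il13 stood at 0.144, 0.330 and 1.91 CPM and 6.79, 9.12 and 2.41 CPM (2.93 ± 0.75, adjusted p = 0.0103, or 0.0544 without E. coli library 2, and a value of 4.63 without PBS library 3). Il5 stood at 0.865, 2.31 and 1.12 CPM and 5.16, 16.8 and 2.16 CPM. For Il5, E. coli library 2 was far above the others, and without it the value was 1.36 (adjusted p = 0.214), against 2.49 ± 0.72 with it (adjusted p = 0.0198, and 0.0783 and 0.0616 without PBS library 1 or 3). Il4 and the lineage factor Gata3 did not pass, at 1.75 ± 0.69 (adjusted p = 0.0767, and 0.0442 without PBS library 1) and -0.23 ± 0.09 (adjusted p = 0.0793, and 0.0298 with upper-quartile scaling).

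Of 12 follicular helper genes tested, 6 rose and 2 fell. The costimulator Icos rose from 419.7, 562 and 442 to 1037, 958 and 929 CPM (1.04 ± 0.13), the inhibitory receptor Pdcd1 by 1.22 ± 0.19, Tox2 by 1.37 ± 0.25, and Cxcr5, the receptor for B cell follicles, by 0.85 ± 0.19. Bcl6, the lineage factor, was at 0.74 ± 0.19 (adjusted p = 0.0113, or 0.0517 without PBS library 1). The fallers were Il6st, the signalling chain for IL-6 (-0.37 ± 0.10, adjusted p = 0.0815 without E. coli library 2), and Slamf6 (-0.28 ± 0.09). The Slamf6 call was lost without any 1 of the E. coli libraries or PBS libraries 1 and 2 (adjusted p 0.0596 to 0.0807).

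The regulatory T cell program rose broadly, with 18 of 23 tested genes called as rises, 1 as a fall and a median of 1.02. Foxp3, the factor that defines the lineage, stood at 294, 389 and 333 CPM after PBS and 870.2, 693 and 497 CPM after E. coli. E. coli library 1 was highest and library 3 lowest, and the lowest was above the highest PBS value (1.02 ± 0.18, adjusted p = 0.000721). Ctla4, the inhibitory receptor that regulatory cells carry, stood at 191, 254 and 253 CPM and 962, 831 and 624 CPM (1.79 ± 0.17). Ikzf2, or Helios, rose by 1.10 ± 0.15, the ectonucleotidase Entpd1 by 2.09 ± 0.19, the cytokine Il10 by 2.70 ± 0.34 and the IL-2 receptor chain Il2ra by 1.63 ± 0.21. The faller Gpr83, an orphan receptor of regulatory cells, went from 74.1, 83.4 and 68.7 to 37.7, 39.6 and 45.2 CPM (-0.88 ± 0.11). Ctla4, Il2ra, Il10 and others of the list are also raised in activated helper cells.

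Of 16 effector transcription factors, 14 rose and 0 fell (median 1.24). Prdm1, which encodes Blimp-1, stood at 41.2, 39.9 and 47.3 CPM and 219, 202 and 149 CPM (2.15 ± 0.15, adjusted p = 5.34e-07). Irf4, graded by T cell receptor signal strength, stood at 69.2, 127 and 73.3 CPM and 454, 476 and 584 CPM (2.50 ± 0.21). Prdm1 was highest in E. coli library 1 and Irf4 in library 3, and neither overlapped with PBS. Bhlhe40, a repressor needed for effector cytokines, rose by 2.44 ± 0.18, Hif1a by 1.31 ± 0.15 and Nfil3 by 1.76 ± 0.24.

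Among 14 inhibitory receptors and ligands 10 rose and 1 fell. Cd274, which encodes PD-L1, stood at 63.8, 71.9 and 65.5 CPM and 355, 317 and 262 CPM (2.22 ± 0.14, adjusted p = 2.02e-07), with a wide gap between the groups. Tigit rose by 1.45 ± 0.20 and Lag3 by 1.81 ± 0.45, from 0.865, 1.15 and 3.83 to 8.17, 5.94 and 6.35 CPM (2.76 without PBS library 3). Cd96, which shares ligands with Tigit, fell by 0.76 ± 0.11 on the log2 scale. In the TNF superfamily 9 of 20 rose and 2 fell. The TNF receptor Tnfrsf1b rose by 1.44 ± 0.16, 4-1BB (Tnfrsf9) by 1.84 ± 0.24, OX40 (Tnfrsf4) by 1.45 ± 0.24 and the death ligand TRAIL (Tnfsf10) by 1.29 ± 0.18. Tnfrsf26 (-0.81 ± 0.11) and the helper ligand Cd40lg (-0.31 ± 0.10) fell, the latter with its call lost without E. coli library 1 or 2 or PBS library 1 or 2 (adjusted p 0.0592 to 0.0985).

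Cytokine receptor chains moved both ways, with 10 rises and 5 falls (3 without E. coli library 2) among 20. The IL-2 receptor chain Il2rb stood at 191, 133 and 244 CPM and 528, 396 and 384 CPM (1.20 ± 0.18), while Il7r, the receptor for the survival cytokine of resting T cells, went from 1219, 1170.3 and 1208 to 642, 652 and 839 CPM (-0.75 ± 0.10). E. coli library 3 was the nearest to PBS for both. Tgfbr1 rose by 0.62 ± 0.08. Of 18 activation surface genes 9 rose and 1, Cd40lg, fell. The memory marker Cd44 rose by 0.84 ± 0.10, and the early marker Cd69 stood at 217, 208 and 183 CPM and 252, 222 and 220.0 CPM and did not pass (0.19 ± 0.10, adjusted p = 0.163).

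Several feedback genes of cytokine signalling and most NF-kB genes rose. Socs3, which blocks JAK signalling after IL-6 and has a GAS element in the window shown, stood at 16.1, 11.5 and 26.1 CPM and 91.0, 85.8 and 115 CPM (2.44 ± 0.23, adjusted p = 3.46e-06). Cish, a feedback gene of STAT5, stood at 21.5, 22.9 and 32.0 CPM and 85.4, 87.1 and 86.8 CPM (1.76 ± 0.16). Icam1, an adhesion ligand induced by NF-kB and interferon-gamma, stood at 20.7, 18.5 and 19.8 CPM and 101, 103 and 111 CPM (2.42 ± 0.13, adjusted p = 6.63e-08). The 3 E. coli values of Cish and of Icam1 lie closer together than those of Ifit3 or Gbp5 given above. Of 13 STAT feedback genes 5 rose and 0 fell, and Socs1, an inhibitor of interferon signalling, did not pass (3.75, 1.65 and 3.83 and 3.52, 4.01 and 6.61 CPM, 0.61 ± 0.38, adjusted p = 0.264). Of 18 NF-kB genes 12 rose and 0 fell, including Bcl3 (2.32 ± 0.18), Nfkbiz (1.46 ± 0.13), Rel (0.81 ± 0.10), Nfkb2 (1.18 ± 0.19) and the inhibitor Nfkbia (0.55 ± 0.13).

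Of 23 immediate early genes 8 rose and 0 fell (median 0.29), with 5 rises without PBS library 1, 1 fall without E. coli library 3 and 3 falls without PBS library 2. Nr4a1, Nr4a2 and Nr4a3, nuclear receptors switched on by antigen receptor signals, rose by 0.92 ± 0.23, 1.75 ± 0.22 and 1.29 ± 0.18, Dusp4 by 1.76 ± 0.21 and the mRNA decay factor Zfp36 by 1.32 ± 0.21. The Nr4a1 call was lost without PBS library 1 (adjusted p = 0.0515). Jun and Egr1 did not pass (0.44 ± 0.20 and 0.11 ± 0.14, adjusted p = 0.126 and 0.61), and Jun passed without PBS library 3 (0.0365).

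Of 11 tested cytotoxic effector genes 8 rose and 0 fell (median 1.41). Gzmb, granzyme B, stood at 12.2, 23.6 and 20.6 CPM and 279, 217 and 118 CPM, with library 1 highest (3.45 ± 0.43, adjusted p = 3.95e-05). Xcl1, a chemokine for cross-presenting dendritic cells, stood at 0.576, 1.15 and 0.638 CPM and 16.3, 12.8 and 18.0 CPM (4.31 ± 0.39). Nkg7 rose by 1.68 ± 0.19, and the granzyme inhibitors Serpinb9 and Serpinb6b by 1.39 ± 0.17 and 1.30 ± 0.16. Markers of other cytotoxic cells were measured beside them. Cd8a and Cd8b1 together stood at 23.5, 90.0 and 26.5 CPM after PBS and 91.7, 76.8 and 67.0 CPM after E. coli, neither called, though Cd8a was at 2.53 (adjusted p = 0.00591) without PBS library 2. The NK cell receptor Ncr1 stood at 0.288, 0.330 and 0.159 CPM and 1.38, 1.24 and 2.16 CPM, and Klra8 was at 0 in all juvenile libraries. The sum over 10 markers of NK and innate lymphoid cells was 199 to 236 CPM and 247 to 268 CPM, and of 6 tested 1 rose, Gzma. These markers share Gata3 and Il1rl1 with the Th2 genes and Gzma with the cytotoxic effectors, so the sum is no measure of NK cells alone. The NK receptor Klrb1c stood at 2.31, 2.80 and 2.07 CPM and 1.89, 0.967 and 4.57 CPM. Klrc1 stood at 0.576, 0.330 and 0.478 CPM and 0.880, 0.829 and 4.70 CPM, and neither was called. The part of these other cells in the granzyme values was not tested.

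Naive and lymph node homing genes fell, 19 of 24 with 1 rise (median -0.48), and 12 of 24 without E. coli library 2 or PBS library 1. Ccr7 (chromosome 11, 99144196 to 99155077), which guides T cells into lymph nodes, stood at 678, 537 and 717 CPM after PBS and 261, 251 and 365 CPM after E. coli (-1.14 ± 0.14, adjusted p = 5.01e-05). Klf3, a repressor in resting cells, stood at 1244, 1161 and 1238 CPM and 452, 514 and 728 CPM (-1.10 ± 0.15), and Klf2, a factor of quiescence and recirculation, at 171, 254 and 148 CPM and 73.7, 81.9 and 111 CPM (-1.10 ± 0.17). E. coli library 3 lay nearest to PBS for each of the 3, and the groups did not overlap. Tcf7, the factor TCF-1, fell less, from 2488, 2327 and 2552 to 1512, 1532 and 1880.0 CPM (-0.58 ± 0.10). Dapl1, a marker of naive cells, was at -1.12 ± 0.13. The 1 riser was Ccr9 (92.8, 146 and 108 to 362, 325 and 219 CPM, 1.39 ± 0.20), a gut and thymus homing receptor.

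Of 25 receptors for tissue homing, integrins and RGS genes, 16 rose and 4 fell. Rgs1, which dampens chemokine receptor signals in tissue T cells, stood at 70.2, 100.0 and 88.3 CPM and 407, 424 and 349 CPM (2.19 ± 0.14, adjusted p = 3.09e-07). Ccr2, an inflammatory chemokine receptor, rose by 1.67 ± 0.20, and the integrin chain Itgae, of cells that stay in epithelium, by 1.26 ± 0.21. Cxcr4, the receptor for CXCL12, went from 205, 161 and 273 to 82.0, 88.9 and 116 CPM (-1.15 ± 0.18).

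T cell receptor complex and proximal kinase genes fell in 10 of 23 cases and rose in 0 (median -0.26). Cd3d stood at 213, 309.7 and 213 CPM and 139.8, 143 and 152 CPM (-0.76 ± 0.12), the costimulator Cd28 was at -0.46 ± 0.10 and Themis at -0.42 ± 0.09. Changes in this list were small, and the number of falls was 15 with upper-quartile scaling, 17 with limma voom, 16 without PBS library 2, where 1 rose, and 6 with only the juvenile libraries. Cd4, the coreceptor used for the sort, stood at 1343, 1243 and 1307 CPM and 1091, 1028 and 1127 CPM (-0.26 ± 0.07, adjusted p = 0.0152, or 0.0877 and 0.0579 without E. coli library 2 or PBS library 1). Cd3e stood at 1908, 1683 and 2033 CPM and 1709, 1535 and 1621 CPM and was not called (-0.21 ± 0.09, adjusted p = 0.104, or 0.022 without PBS library 2). Both markers of the labelled cell type were abundant in every juvenile library.

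**Figure D3:**
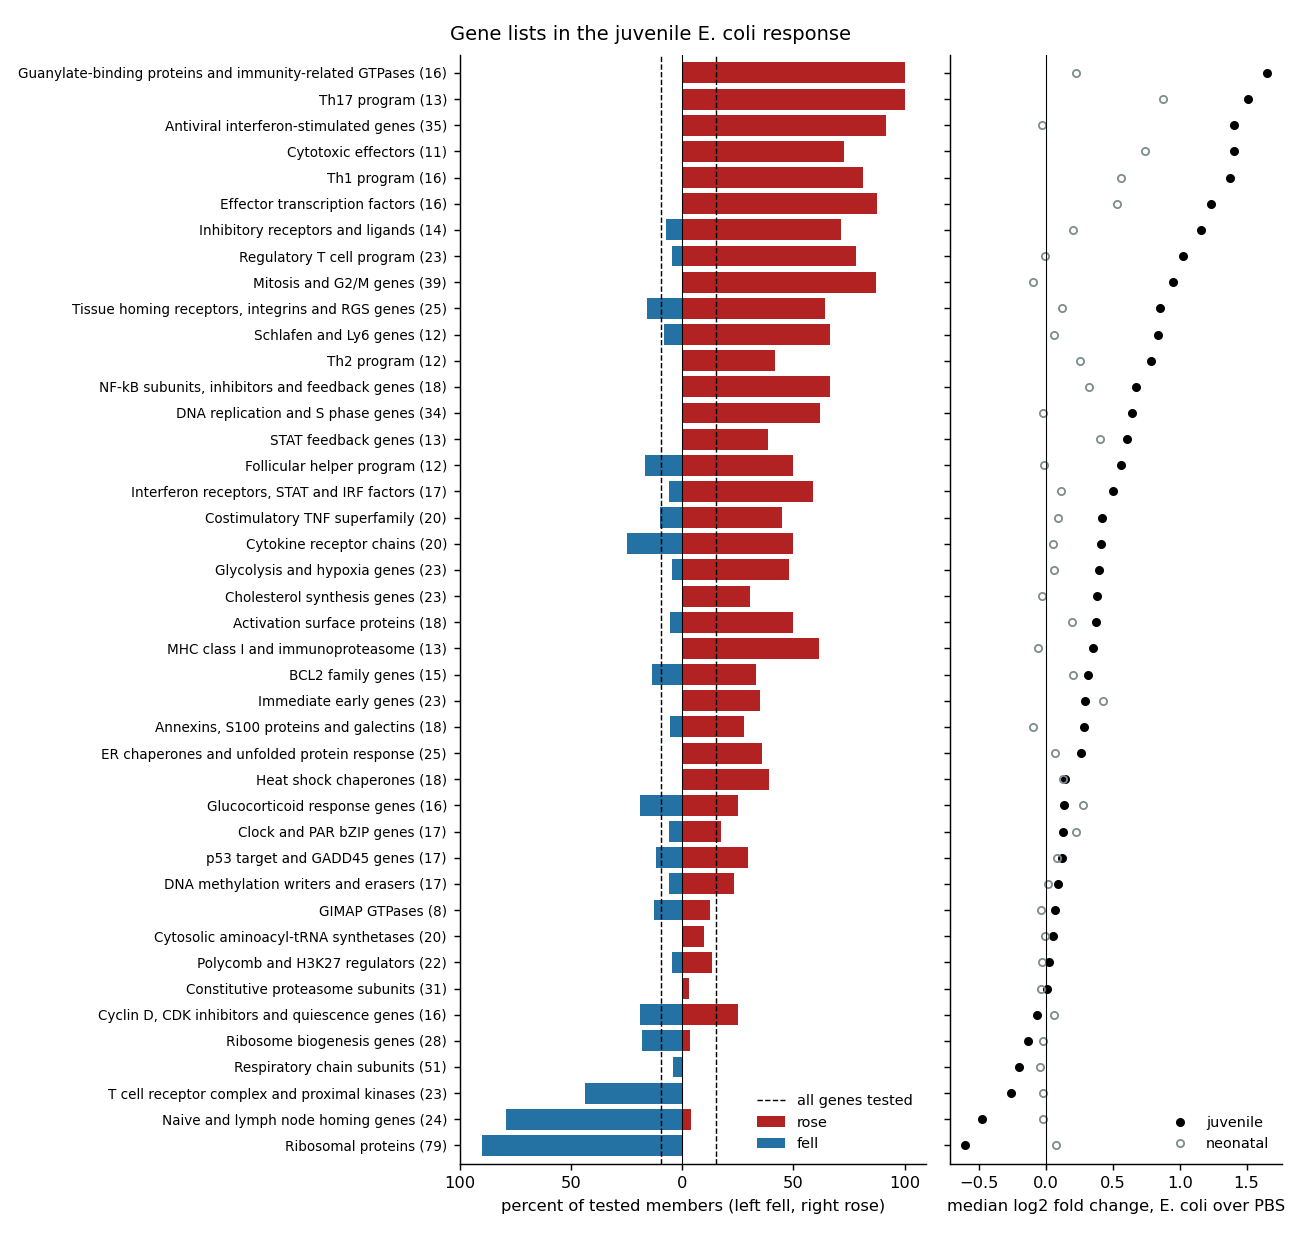
Left, percent of the tested members of each gene list that fell (blue, to the left) or rose (red, to the right), with the number tested in brackets and dashed lines at the shares of all transcripts tested, 9.42% and 15.4%. Right, median log2 fold change of the same members in juveniles (filled) and neonates (open); the juvenile medians run from -0.61 for ribosomal proteins to 1.65 for GBPs and immunity-related GTPases.

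Genes of cell division rose. Of 39 mitosis genes 34 rose and 0 fell (median 0.95), and of 34 DNA replication and S phase genes 21 rose (13 without E. coli library 1) and 0 fell (median 0.65). Mki67, the proliferation marker Ki-67, stood at 645, 1161 and 648 CPM and 2474, 2184 and 1780.4 CPM (1.39 ± 0.19, adjusted p = 0.000107). Top2a, the topoisomerase of dividing cells, stood at 414, 746 and 372 CPM and 1395, 1165 and 824 CPM (1.14 ± 0.22). In both, PBS library 2 was the highest PBS library and E. coli library 1 the highest E. coli library, and the gap between the groups was narrower at PBS library 2. The kinetochore motor Cenpe rose by 1.56 ± 0.19, Ect2, of cytokinesis, by 1.05 ± 0.13, the mitotic regulator Foxm1 by 0.95 ± 0.13 and cyclin B1 (Ccnb1) by 1.10 ± 0.23. In S phase, the polymerases Pola1 and Pole rose by 0.82 ± 0.13 and 0.88 ± 0.15, the ribonucleotide reductase Rrm2 by 0.99 ± 0.18, thymidine kinase Tk1 by 1.08 ± 0.19 and the helicase Mcm2 by 0.57 ± 0.12. Rag1 was also highest in PBS library 2, as given above, and its part in the level of division genes there was not tested.

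Regulators of the cycle moved in both directions, 4 up and 3 down of 16 (5 down without E. coli library 3). These are 25% and 18.8% of the list, against 15.4% and 9.42% of all transcripts. Cdkn1a, the CDK inhibitor p21, stood at 1.44, 2.64 and 2.87 CPM and 25.7, 22.6 and 23.4 CPM, a 10.4-fold rise (3.37 ± 0.24, adjusted p = 5.44e-07). Txnip, a brake on glucose uptake that is high in resting cells, stood at 564, 493 and 543 CPM and 187, 223 and 249 CPM (-1.28 ± 0.11). Cyclin D1 (Ccnd1) rose by 1.32 ± 0.19, and Pik3ip1, an inhibitor of PI3 kinase, was at -0.81 ± 0.15. Cdkn1b, or p27, was at -0.35 ± 0.10 with overlapping groups (adjusted p = 0.0217). Its call was lost without E. coli library 1 or 2 (0.0697 and 0.0913) or PBS library 1 or 3 (0.0922 and 0.079).

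In metabolism, 11 of 23 glycolysis and hypoxia genes rose and 1 fell. Hexokinase 2 (Hk2) stood at 5.19, 4.94 and 4.78 CPM and 23.6, 24.0 and 17.2 CPM (2.11 ± 0.24), and Egln3, an oxygen sensor that HIF-1 induces, rose by 1.10 ± 0.18. The faller was Pdk1, a kinase that inhibits pyruvate dehydrogenase (191, 189.5 and 183 to 91.3, 114 and 136 CPM, -0.72 ± 0.11). Of 51 respiratory chain subunits 0 rose and 2 fell, both shares under those of all transcripts, and the falls ran from 0 without E. coli library 2 to 8 without PBS library 3. Without PBS library 1 they came to 7 and without PBS library 2 to 4, where 3 rose. Of 23 cholesterol synthesis genes 7 rose and 0 fell (3 rises without E. coli library 1, 4 without E. coli library 2 or PBS library 1 and 11 without E. coli library 3), with Cyp51 at 1.05 ± 0.16 and Insig1 at 0.73 ± 0.14.

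Ribosomal protein genes fell together, 71 of 79 with 0 rises (median -0.61). Rpl8 stood at 332, 394 and 378 CPM and 232, 211 and 244 CPM (-0.68 ± 0.09, adjusted p = 8.27e-05) and Rps18 at 403, 506 and 476 CPM and 275, 242 and 305 CPM (-0.75 ± 0.10). Rps9 and Rpl3 were at -0.64 ± 0.09 and -0.50 ± 0.08. Falls were modest and alike, all 4 with groups that did not overlap, and reads of ribosomal protein genes may be split with their pseudogenes. Genes that build ribosomes did not follow as a group, with 1 rise and 5 falls among 28, and no rise without any 1 of E. coli libraries 1 and 2 and PBS libraries 1 and 3. Among the falls, Wdr12 was at -0.62 ± 0.11 and Polr1a, the large subunit of RNA polymerase I, at -0.41 ± 0.08. Of 20 cytosolic tRNA synthetases 2 rose and 0 fell, both shares under those of all transcripts. The risers were Wars (0.69 ± 0.14), which interferon-gamma induces, and Vars (0.50 ± 0.13, adjusted p = 0.0114, or 0.0839 and 0.0551 without E. coli library 1 or PBS library 1).

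Chaperones of the endoplasmic reticulum rose in part, 9 of 25 (14 without PBS library 2) with 0 falls. Hspa5, the chaperone BiP, stood at 658, 664 and 648 CPM and 1047, 956 and 969 CPM (0.59 ± 0.07, adjusted p = 3e-05), and the stress sensors Atf6 and Ern1 rose by 0.65 ± 0.09 and 1.03 ± 0.17 and the factor Xbp1 by 0.63 ± 0.10. Of 18 heat shock chaperones 7 rose and 0 fell. Hspa1a (chromosome 17, 34969190 to 34972156), the inducible HSP70, stood at 5.04, 3.79 and 3.99 CPM and 67.3, 75.8 and 127 CPM (4.38 ± 0.40). Hspa1b, its near-identical neighbour, stood at 1.30, 0.659 and 0.638 CPM and 22.6, 29.8 and 37.5 CPM (5.06 ± 0.53), and how reads divide between the pair is not known. E. coli library 3 was highest for both. A heat shock element stood in 2 of 20 promoters of this list, against 0.393% of promoters tested. Hsp90aa1, Hspa4l and Hsph1 moved far less, at 0.63 ± 0.09, 0.60 ± 0.11 and 0.43 ± 0.10.

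Survival genes were mixed, with 5 rises and 2 falls among 15 BCL2 family genes (0 falls without E. coli library 1 or PBS library 3, and 1 without E. coli library 2 or PBS library 1). These are 33.3% and 13.3% of the list. For this and the next lists the shares of all transcripts are 15.4% and 9.42%. The pro-death Pmaip1, or Noxa, stood at 8.50, 11.4 and 10.5 CPM and 28.4, 32.7 and 27.6 CPM (1.55 ± 0.20), and the pro-survival Bcl2a1d and Bcl2a1b rose by 1.78 ± 0.27 and 1.16 ± 0.27, with reads that near-identical copies may share. Bcl2 itself was at -0.42 ± 0.12 (adjusted p = 0.0172) and lost its call without E. coli library 1 (0.0649) or PBS library 1 or 3 (0.069 and 0.0789). Among 17 p53 target and GADD45 genes 5 rose and 2 fell (1 without E. coli library 1 or 2 or PBS library 3), or 29.4% and 11.8%. Gadd45g was at 2.81 ± 0.42 and Gadd45b at 1.31 ± 0.31, while Sesn1, a brake on mTORC1, went from 252, 295 and 229.9 to 83.2, 106 and 126 CPM (-1.30 ± 0.13). Among 16 glucocorticoid response genes 4 rose and 3 fell (5 without PBS library 2), or 25% and 18.8%. Tsc22d3, or GILZ, stood at 461, 589.8 and 424 CPM and 123, 169 and 211 CPM (-1.55 ± 0.16, adjusted p = 9.77e-06), while the kinase Sgk1 rose by 0.90 ± 0.15. Of 17 clock genes 3 rose and 1 fell, near the shares of all transcripts. The faller was Dbp, an output gene of the clock, at -1.51 ± 0.25. Without PBS library 3, 2 clock genes fell.

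Of the machinery that writes and erases DNA methylation, 4 of 17 rose and 1 fell, near the shares of all transcripts (2 rises without PBS library 1, and 3 falls without PBS library 2). Tet1, a dioxygenase that starts demethylation, stood at 233, 240.1 and 216 CPM and 126, 133 and 147 CPM (-0.77 ± 0.08, adjusted p = 1.15e-05). Uhrf1, which brings the maintenance enzyme to replicated DNA, stood at 23.1, 32.0 and 24.1 CPM and 68.3, 51.5 and 42.1 CPM (1.04 ± 0.18). Both had groups that did not overlap. Dnmt1, the maintenance methyltransferase, stood at 282, 369 and 260.0 CPM and 502, 402 and 355 CPM (0.47 ± 0.13, adjusted p = 0.0161), with PBS library 2 inside the E. coli range. The Dnmt1 call was lost without E. coli library 1 (0.128) or PBS library 1 or 3 (0.0673 and 0.0611). Tet2 was at 0.28 ± 0.08 (adjusted p = 0.0156) and lost its call without E. coli library 2 or PBS library 1 (0.0661 and 0.053). Dnmt3a, a de novo methyltransferase, did not pass (239, 201 and 257 and 245, 253 and 254 CPM, adjusted p = 0.391). Of 22 polycomb and H3K27 genes 3 rose and 1 fell, both shares under those of all transcripts. With 1 library left out there were 0 to 4 falls, the most without PBS library 2, and 1 rise without E. coli library 1 or 2. The methyltransferase Ezh2 was at 0.67 ± 0.14.

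A list of annexins, S100 proteins and galectins, with Vim, Ahnak and Crip1 of other families, held 18 genes. Of these 5 rose and 1 fell (2 rises without E. coli library 2, 3 without PBS library 1 and 8 without PBS library 2, with 0 to 2 falls). Anxa4 rose by 1.50 ± 0.19 and Anxa2 by 0.78 ± 0.15. Ahnak was at 0.40 ± 0.11 (adjusted p = 0.0148, or 0.0747 without E. coli library 2). Of 8 GIMAP GTPases, which support lymphocyte survival, 1 rose (Gimap7, 0.89 ± 0.18) and 1 fell (Gimap1, -0.26 ± 0.07), near the shares of all transcripts. Gimap1 lost its call without E. coli library 2 (adjusted p = 0.0916) or PBS library 1 (0.0839).

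The 10 largest falls, chosen in the same way as the rises, included Chi3l3 and Tsc22d3, and the rest were in genes of other kinds. Nkd2, a Wnt antagonist, stood at 26.8, 12.5 and 34.1 CPM and 4.02, 3.73 and 4.70 CPM (-2.56 ± 0.33), with E. coli values close together. Sele, which encodes the endothelial adhesion molecule E-selectin, stood at 16.9, 18.8 and 12.3 CPM and 3.52, 4.14 and 6.61 CPM (-1.74 ± 0.25). The tetraspanin Tspan9 was at -1.72 ± 0.25, Paqr7, a membrane progestin receptor, at -1.41 ± 0.16, and the adhesion protein Amigo2 at -1.31 ± 0.13. Slc26a10 was at -1.40 ± 0.20, Pex11c at -1.31 ± 0.17 and She at -1.30 ± 0.20.

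The 3 E. coli libraries were not alike, and lists differed in which library led. For antiviral genes the median log2 level over PBS was 1.83, 1.31 and 0.92 in E. coli libraries 1, 2 and 3. It was 1.31, 1.05 and 0.67 for regulatory T cell genes and 1.30, 0.93 and 0.67 for mitosis genes. Naive genes were at -0.67, -0.49 and -0.29. These 4 lists moved furthest in library 1 and least in library 3. Effector transcription factors were level, at 1.19, 1.24 and 1.14, and STAT feedback and immediate early genes were highest in library 3, at 0.24, 0.40 and 0.83 and 0.22, 0.26 and 0.76. Among PBS libraries, library 2 stood above the others for mitosis genes (-0.24, 0.37 and -0.19) and ribosomal proteins (-0.14, 0.27 and -0.14), and library 3 for immediate early genes (-0.15, -0.29 and 0.40). No test was made of these orders, since a library is 1 replicate.

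**Figure D4:**
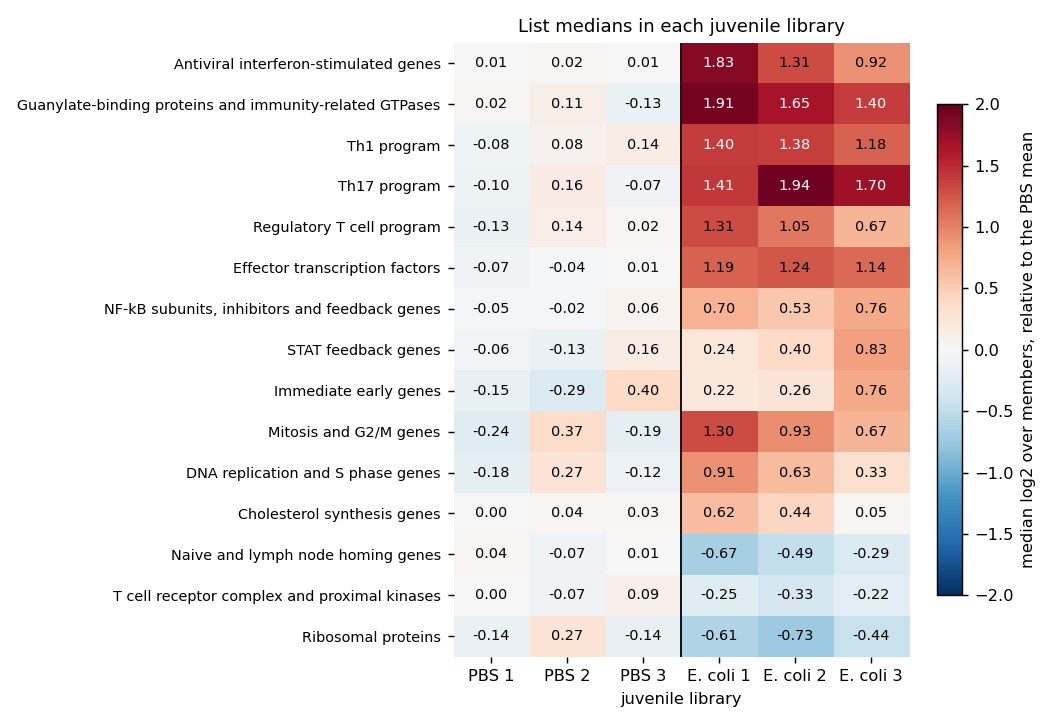
Median over the tested members of 15 lists of log2(CPM + 0.5) in each juvenile library, relative to the mean of the 3 PBS libraries; red is higher and blue lower. Antiviral genes run from 1.83 in E. coli library 1 to 0.92 in library 3, and immediate early genes from 0.22 to 0.76.

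The juvenile response was set beside the neonatal one, measured in other libraries, by a test of the difference of log2 fold changes. In neonates 1.05% of transcripts rose and 0.145% fell. Of all transcripts 5.05% differed towards a higher log2 fold change in juveniles (559) and 1.94% towards a lower one (215). With 1 library left out the 774 became 368 (juvenile E. coli library 1 or 2) to 1553 (juvenile PBS library 2). The difference was called for 531 of the 1705 juvenile rises and 197 of the 1042 falls. The juvenile fold change is a term of the difference, so the direction of these calls was close to fixed by the choice of transcripts. Lists varied in how many members had a difference called. The difference was called higher for 26 of 35 antiviral genes, 14 of 16 GBPs and immunity-related GTPases, 28 of 39 mitosis genes and 12 of 23 regulatory T cell genes, and lower for 47 of 79 ribosomal proteins and 12 of 24 naive genes. Neonatal medians for these 6 lists ran from -0.09 to 0.23, against the juvenile medians given above. It was called for 4 of 13 Th17 genes and for 1 of the 5 STAT feedback genes that rose in juveniles, Socs2 (1.59 ± 0.34). In neonates 7 of the 13 Th17 genes and 4 of the 5 STAT feedback genes also rose.

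Some genes had responses of like size at the 2 ages, and 5 are given here, chosen after their values were seen. Socs3 was at 2.44 ± 0.23 in juveniles and 2.38 ± 0.22 in neonates (difference 0.06 ± 0.32, adjusted p = 0.943), and Batf at 1.16 ± 0.15 and 1.06 ± 0.15 (0.11 ± 0.22). Cxcr6 was at 1.11 ± 0.14 and 1.05 ± 0.15 (0.06 ± 0.21), Pdcd1 at 1.22 ± 0.19 and 1.17 ± 0.22 (0.05 ± 0.30), and Sgk1 at 0.90 ± 0.15 and 0.96 ± 0.15 (-0.06 ± 0.22). None of these differences passed, which does not show that the responses are equal. Among transcripts with an average of at least 3 log2 CPM, the largest positive differences were those of Cxcl9 (5.05 ± 1.18, adjusted p = 0.0183), Kdr (3.53 ± 0.76), Arpp21 (3.44 ± 0.96), Cav1 (3.14 ± 0.89), Scn7a (3.14 ± 0.86) and Phf11 (3.09 ± 0.52). Phf11, an interferon-induced gene, stood at 4.18, 3.30 and 4.62 CPM and 33.3, 23.3 and 13.5 CPM in juveniles (2.53 ± 0.34). Arpp21, a gene of immature T cells, was not called in juveniles (5.33, 44.0 and 7.17 and 25.7, 24.3 and 21.5 CPM, 0.35 ± 0.60), and PBS library 2 was the highest. Without that library it was at 1.93 (adjusted p = 0.00757). In neonates Arpp21 was at -3.09, so most of its difference came from the neonatal value. Cav1 and Scn7a, known from endothelium and stroma, rose in juveniles by 2.19 ± 0.68 and 2.62 ± 0.65. The Cav1 call was lost without E. coli library 1 or 2 (0.0891 and 0.0708) or PBS library 2 or 3 (0.0676 and 0.0923), and without PBS library 1 the values were 3.73 for Cav1 and 3.56 for Scn7a. The largest towards neonates, with the same limit, were those of Nkd2 (-1.85 ± 0.45), Tspan9 (-1.62 ± 0.35), Slc10a1 (-1.56 ± 0.37), Amigo2 (-1.55 ± 0.18), Gabrr2 (-1.39 ± 0.29) and the adaptor Hcst (-1.39 ± 0.30).

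**Figure D5:**
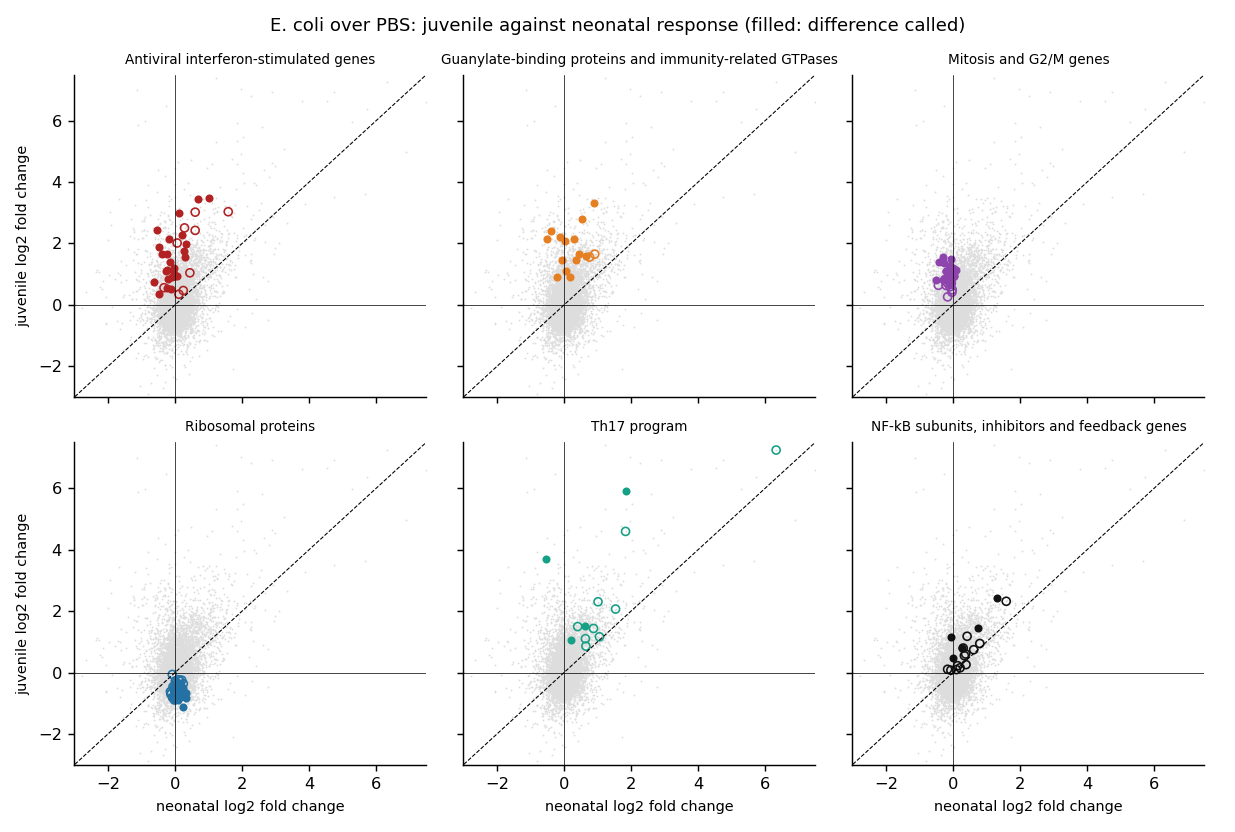
Log2 fold change, E. coli over PBS, in juveniles (vertical) against neonates (horizontal) for the members of 6 lists (colour) over all transcripts tested (grey); filled points have a difference called, and the dashed line marks equal responses. Antiviral, GTPase and mitosis genes lie above 0 in juveniles with list medians near 0 in neonates, where single members spread to both sides, ribosomal proteins lie below 0 in juveniles, and 5 of 18 NF-kB genes and 4 of 13 Th17 genes have a difference called.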

How the data were processed

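RNA was measured in 12 libraries of sorted lung CD4+ T cells, 3 per group, and the values are raw read counts per gene symbol as deposited, with no normalization. Per the submitters' processing notes, base calls were made with CASAVA 1.8.4 and reads aligned with STAR to GRCm38, and the kit named in the labels (NuGEN Ovation V2) makes cDNA without strand marks, so reads of overlapping genes cannot be told apart. Counter settings and the annotation are not given in the labels or notes used here. Transcripts were filtered by edgeR 4.0.16 (minimum count 10, minimum total 15), which kept 99.92% of counts, scaled by TMM and tested by its quasi-likelihood F test (R 4.3.3) on 4 group means over all 12 libraries. P-values were adjusted by Benjamini and Hochberg and called under 0.05. The contrasts were the juvenile and the neonatal response, which share no library, and their difference, which uses the libraries of both. Standard errors are the log2 fold change divided by the square root of F. Libraries held 6125044 counts or more in juveniles, and floors and intervals cover counting error only. Replicates are separate pools of mice, and no 2 libraries agreed within sampling noise. Alternatives were upper-quartile and RLE scaling, limma 3.58.1 voom, DESeq2 1.42.0, other filters, a replicate block, only juvenile libraries, and leaving out each library. Gene coordinates come from GENCODE M21 (GRCm38) and promoters from RefSeq. Figures were drawn with matplotlib 3.10.9.

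Genes named are the 10 largest rises and falls and the 6 largest differences each way (average of at least 3 log2 CPM, called, groups not overlapping for rises and falls, predicted genes left out), and per list its anchors and up to 4 members of smallest p. Some transcripts that this rule names are not reported here. Outside that rule, Jak1, Slfn1, Il6st, Slamf6, Cd40lg, Ccr9, Socs2, Gzma and single markers of other cells were named after their values were seen. Members and lists were chosen with earlier results of these data known.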

Additional observations from a re-analysis of the deposited data

Results flagged for a closer look

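The response to E. coli differed between juveniles and neonates by the test of the difference (edgeR's quasi-likelihood test, adjusted p under 0.05) for 125 of the 216 named genes tested, 94 with a higher and 31 with a lower log2 fold change in juveniles. Over all transcripts tested 5.05% differed towards a higher and 1.94% towards a lower value (774 in all, and 368 without juvenile E. coli library 1 or 2). Most of the named genes were chosen for a small p in juveniles or a large difference, so their share is set by that choice. Values are the juvenile minus the neonatal log2 fold change. For interferon signalling genes the difference was 0.65 for Jak2, 1.20 for Stat2 and 0.98 for Irf8. For antiviral genes the difference was 2.99 for Ifit3, 2.47 for Mx1, 1.50 for Rtp4, 1.18 for Parp14, 1.27 for Zbp1 and 2.78 for Ifi204. For GBPs and immunity-related GTPases the difference was 1.87 for Gbp2, 2.25 for Gbp5, 1.22 for Igtp, 0.92 for Irgm2 and 2.42 for Iigp1. For MHC class I genes the difference was 0.73 for Tap1, 0.62 for Tapbp, 0.88 for Tapbpl and 0.60 for Psmb9. For Th1 genes the difference was 2.60 for Ifng, 1.41 for Il12rb1, 1.64 for Cxcr3 and 0.84 for Il18rap. For Th17 genes the difference was 0.87 for Rora, 4.06 for Il22, 4.22 for Il21 and 0.89 for Maf. For regulatory T cell genes the difference was 1.52 for Foxp3, 2.01 for Il2ra, 1.55 for Ikzf2, 1.86 for Ctla4, 1.28 for Tnfrsf4, 1.81 for Tnfrsf9, 2.10 for Entpd1, -1.20 for Gpr83 and 2.01 for Tigit. For effector transcription factors the difference was 1.72 for Prdm1, 1.54 for Nfil3, 1.23 for Bhlhe40 and 1.02 for Hif1a. For TNF superfamily members the difference was 1.38 for Tnfrsf1b, -0.56 for Tnfrsf26 and 1.39 for Tnfsf10. For NF-kB subunits, inhibitors and feedback genes the difference was 0.54 for Rel, 0.70 for Nfkbiz and 1.10 for Icam1. For cytotoxic effectors the difference was 2.63 for Gzmb, 2.28 for Xcl1 and 0.98 for Serpinb9. For naive and lymph node homing genes the difference was -1.24 for Ccr7, -0.90 for Klf2, -0.87 for Klf3, -0.67 for Tcf7, 1.33 for Ccr9 and -0.97 for Dapl1. For Schlafen and Ly6 genes the difference was 0.96 for Slfn5, 0.64 for Ly6e and 1.28 for Ly6c2. For tissue homing receptors, integrins and RGS genes the difference was 1.54 for Ccr2, -1.29 for Cxcr4 and 0.94 for Rgs1. For ribosomal proteins the difference was -0.55 for Rpl3, -0.91 for Rpl8, -0.71 for Rps9 and -0.91 for Rps18. For DNA replication and S phase genes the difference was 1.31 for Rrm2, 0.82 for Pola1, 0.81 for Pole and 1.03 for Uhrf1. For mitosis and G2/M genes the difference was 1.81 for Mki67, 1.11 for Top2a, 1.30 for Ccnb1, 1.86 for Cenpe, 1.02 for Ect2 and 0.92 for Foxm1. For cyclin D, CDK inhibitors and quiescence genes the difference was 1.23 for Ccnd1, 1.93 for Cdkn1a, -0.86 for Pik3ip1 and -1.11 for Txnip. For the list of annexins, S100 proteins and galectins, which includes Ahnak of another family, the difference was 1.28 for Anxa2, 1.13 for Anxa4 and 0.91 for Ahnak. Among Th2 genes it was 1.23 for Ccr4 and 2.20 for Areg, and among follicular helper genes 1.04 for Icos. Among activation surface proteins it was 2.44 for Ly6a, and among inhibitory receptors and ligands 1.34 for Cd274 and -0.60 for Cd96. Among cytokine receptor chains it was 1.26 for Il2rb and 0.59 for Tgfbr1, and among STAT feedback genes 1.59 for Socs2. Among immediate early genes it was 0.90 for Nr4a3 and 1.65 for Dusp4, and among T cell receptor complex and proximal kinases -0.63 for Cd3d. Among GIMAP GTPases it was 1.08 for Gimap7, and among glycolysis and hypoxia genes 1.17 for Hk2. Among cholesterol synthesis genes it was 0.93 for Cyp51, and among ribosome biogenesis genes -0.40 for Polr1a. Among cytosolic aminoacyl-tRNA synthetases it was 0.78 for Wars, and among ER chaperones and unfolded protein response 0.41 for Hspa5 and 0.62 for Atf6. Among heat shock chaperones it was 0.78 for Hspa4l, and among BCL2 family genes 1.04 for Pmaip1. Among p53 target and GADD45 genes it was -0.65 for Sesn1, and among glucocorticoid response genes -1.30 for Tsc22d3. Among DNA methylation writers and erasers it was -0.54 for Tet1, and among polycomb and H3K27 regulators 0.82 for Ezh2. For genes of no list, markers of other cells included, it was 5.05 for Cxcl9, 3.53 for Kdr, 3.44 for Arpp21, 3.14 for Cav1, 3.14 for Scn7a, 3.09 for Phf11, 2.96 for Cxcl10 and 2.58 for Cdh5. It was -0.96 for Pex11c, -0.98 for Paqr7, -1.04 for She, -1.12 for Slc26a10, -1.21 for Sele, -1.39 for Gabrr2, -1.39 for Hcst, -1.55 for Amigo2, -1.56 for Slc10a1, -1.62 for Tspan9 and -1.85 for Nkd2.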

How the results depend on the processing

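With every library kept, limma voom gave 4480 transcripts called, 1949 falls and 2300 differences between the ages, against 2747, 1042 and 774, and a fit of only the juvenile libraries gave 608 falls. The cause was not tested, except that the last fit has fewer samples. RLE scaling, upper-quartile scaling, DESeq2, no filter and the stricter filter kept each of the 4 counts within 1.5 times. Leaving out 1 library gave 1656 to 3204 transcripts called, 1143 to 1914 rises, 513 to 1290 falls and 368 to 1553 differences. The fewest calls came without E. coli library 2 (513 falls), E. coli library 1 gave 1799 and 628 falls, and the most came without PBS library 2. Differences were 368 without E. coli library 1 or 2, 504 without PBS library 1, 372 and 433 without neonatal E. coli library 1 or 2, 408 and 450 without neonatal PBS library 1 or 3, and 1163 without juvenile E. coli library 3. With the replicate number as a block 2568 were called, 1626 up and 942 down, and 645 differences. Same-numbered juvenile libraries correlated at -0.151, 0.04 and 0.182 in their deviations from group means, so the numbers were not taken to pair the samples. Of 216 named genes tested, 185 kept direction and side of the threshold under every alternative. Arpp21, not called, changed sign to -0.1013 without PBS library 1 and to -0.02284 without PBS library 3, and stood at 1.933 without PBS library 2. Fold changes of transcripts with few or 0 counts in the juvenile PBS libraries, such as Il17a, Il21 and Il22, are limited by depth.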
